A study of Mus musculus with 18 samples.

Results

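The 36 genes described here are markers of macrophages and other myeloid cells, measured in cultures of mouse embryonic fibroblasts. They are Cd68, Csf1r, C3ar1, Clec4n, Clec5a, Cx3cr1, Csf2rb, Ctss, Ctsc, Fcgr3, Irf8, Ly86, Mrc1, Mpeg1, Cybb, Stab1, Pik3ap1, Tlr13, Rac2, Msr1, Ncf4, Lmo2, Tm6sf1, Apoe, Arhgap30, Ptprc, Tyrobp, Fcer1g, Laptm5, Cd14, Cd53, Lyz2, Itgam, Itgb2, Coro1a and Aif1. They were chosen by their measured level, which stood higher in untreated mutant than in untreated wt arrays, so that difference is given below as a description with no test. Of 64 probe sets annotated to one of these genes alone, 50 were kept because their log2 level was at least 5 in at least 2 of 18 arrays, of 18958 kept among all 45037 probe sets. All 36 genes had a kept probe set, among 10078 such genes on the array. Of the kept probe sets 23 reached log2 5 in all 18 arrays and the barest did so in 4, while the brightest of the 14 dropped ones peaked at 4.73. Each gene is described by its kept probe set with the highest mean, and 10 genes had more than 1. Every level below is log2 of the deposited intensity, and levels of different probe sets are not compared with each other.

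The fibroblasts came from embryos of embryonic day 12.5 to 14.5 from which head, liver and blood clots had been taken away. Cells were wt, heterozygous or homozygous for a mutation described as constitutively active, which the series title places in TGFBR1, a receptor for transforming growth factor beta, and the design text in TGFb1. In each genotype 2 arrays came from cells without TGFb1 and 2 each from cells given 5 ng/mL TGFb1 for 4 h or 24 h, 18 arrays in 9 groups. The labels do not say how many embryos or cultures each genotype represents or whether treated and untreated arrays share a culture, so the p-values measure the spread between these arrays, which may be technical, and the treated arrays may not be independent of the untreated ones. All 14 of 14 listed fibroblast genes were kept, and their summed intensity was 230334 to 311199 in wt, 248892 to 297149 in heterozygous and 237009 to 313567 in homozygous arrays, ranges that overlap. Of the 14 only S100a4 differed between a mutant and wt after treatment, and it was lower in both mutants.

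Macrophages are phagocytes that settle in nearly all tissues of the embryo, from progenitors of the yolk sac and later the fetal liver. Their survival depends on the receptor encoded by Csf1r and its ligands CSF1 and IL-34, and their gene program on the transcription factor PU.1, encoded by Spi1, which in part works together with IRF8. They clear dying cells and debris through scavenger, lectin and Fc receptors, and fibroblasts in culture secrete CSF1. In RNA from a whole culture, fewer cells of a type and less RNA per cell cannot be told apart.

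The genes separated the genotypes as a block. The mean log2 level over the 36 genes was 6.31 and 5.41 in the untreated wt arrays, 5.31 and 6.68 at 4 h and 5.09 and 6.06 at 24 h. In heterozygous arrays it was 8.76 and 8.29 untreated, 8.90 and 8.54 at 4 h and 8.62 and 8.08 at 24 h. In homozygous arrays it was 7.93 and 8.03 untreated, 8.19 and 8.26 at 4 h and 7.59 and 7.64 at 24 h. All 12 mutant arrays lay above all 6 wt arrays, and at each time both homozygous arrays lay below both heterozygous ones. The order of mutant and wt arrays is a description, because the untreated arrays had chosen the genes. The 6 wt arrays had 19 to 26 of the 36 genes at log2 5 or more, the mutant arrays 31 to 36. Of all probe sets 39.48% to 40.33% reached it in each array. The filter used the same level, and 11 of the 36 genes passed it only with mutant arrays. The wt count was thus bound to be lower, and nothing is read from it.

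**Figure D1:**
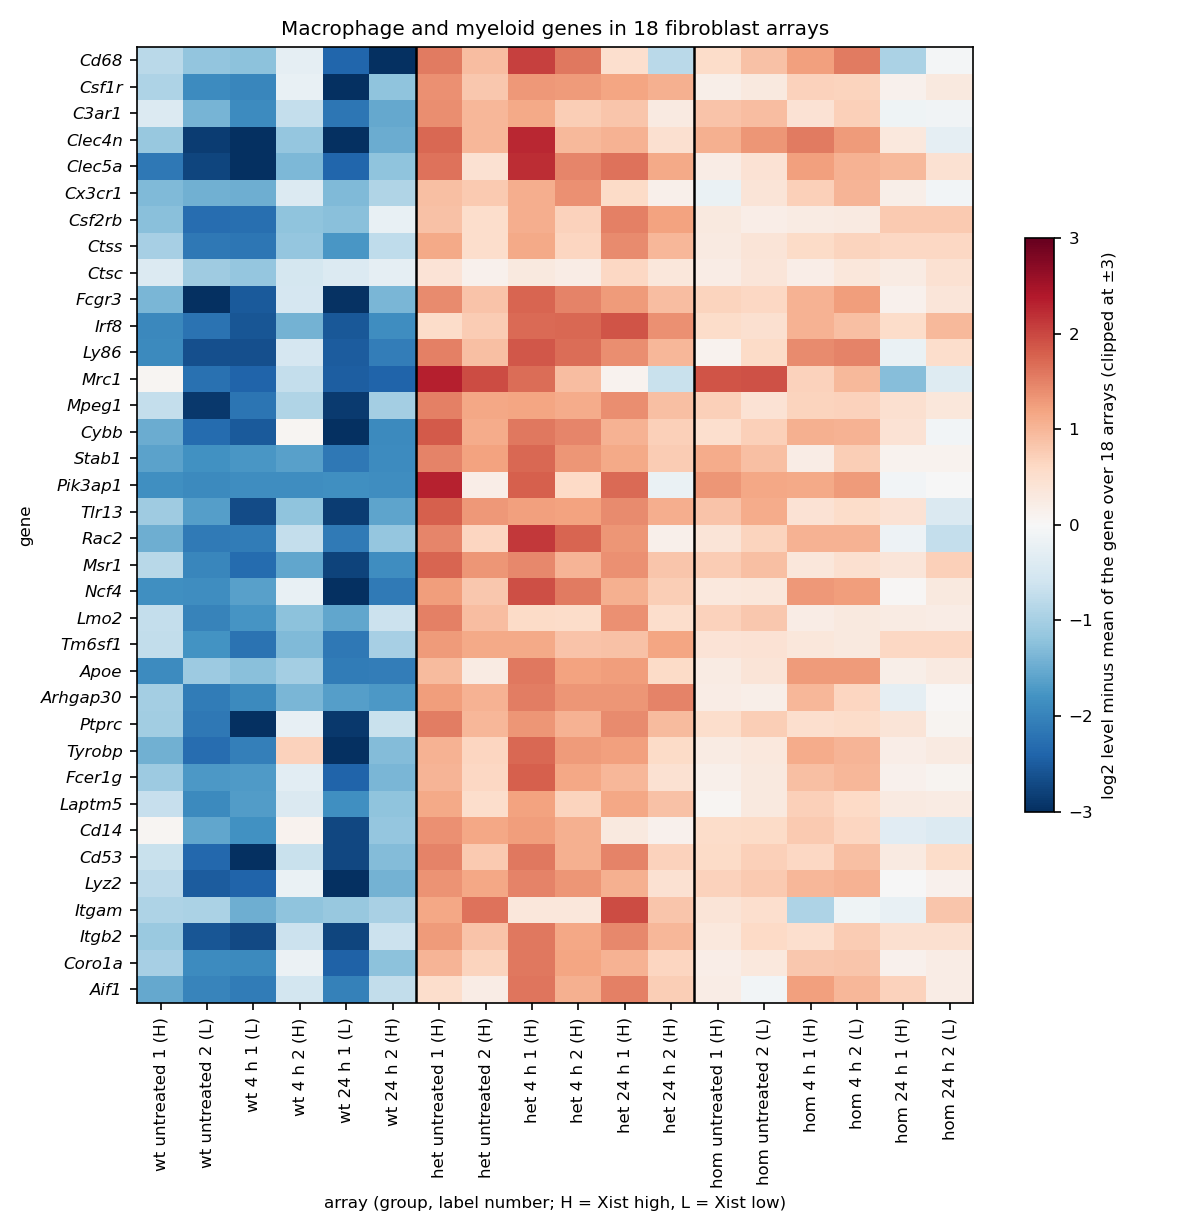
Log2 level of each of the 36 genes (rows) in each of the 18 arrays (columns, with label number and Xist class), minus the mean of the gene over all arrays. The 6 wt columns are blue for nearly all genes, the heterozygous columns are the reddest, Mrc1 pales from untreated to 24 h within each mutant genotype, and Cd68 is reddest at 4 h and palest at 24 h there.

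The 2 wt arrays of a pair differed in these genes more than the mutant pairs did. The root mean square SD over the 36 genes between the 2 arrays was 0.78, 1.10 and 0.84 in wt cells untreated, at 4 h and at 24 h. It was 0.44, 0.33 and 0.47 in heterozygous and 0.15, 0.16 and 0.30 in homozygous cells. Over all genes the wt pairs were also wider apart, so the wider wt spread is not particular to the 36 genes. That SD was 0.38, 0.39 and 0.32 in wt, 0.18, 0.22 and 0.19 in heterozygous and 0.19, 0.20 and 0.20 in homozygous cells. The wt spread followed the Xist class of the arrays, read from Xist, the RNA of the inactive X chromosome. The Y-linked genes Eif2s3y, Kdm5d and Uty gave the same classes. With 1 array of each class in a wt pair, sex cannot be told apart from any other difference between the cultures. Each wt pair held 1 array with Xist at 10.58 to 11.60 and 1 with Xist at 2.33 to 2.50, and the Xist-high array carried label number 1 untreated but number 2 at 4 h and 24 h. In the Xist-high array 35 of 36 genes were higher untreated, 35 at 4 h and 33 at 24 h, with median log2 differences of 0.93, 1.39 and 1.03. Of all kept genes 32.7%, 44.5% and 43.6% were higher there. In all 3 pairs 32 of 36 genes were higher, against 12.5% of all kept genes.

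The homozygous pairs also held 1 Xist-high and 1 Xist-low array each. There 8, 14 and 16 of the 36 genes were higher in the Xist-high array untreated, at 4 h and at 24 h, against 53%, 48.3% and 42.5% of all kept genes. In all 3 pairs 1 of the 36 was higher, against 17.5% of all kept genes. The counts at 4 h and 24 h lie near the shares over all genes, and nothing is read from them. All 6 heterozygous arrays were Xist-high. The 3 Xist-high wt arrays had a mean member level of 6.06 to 6.68 where heterozygous arrays had 8.08 to 8.90. The 3 Xist-low wt arrays stood at 5.09 to 5.41 and the 3 Xist-low homozygous arrays at 7.64 to 8.26. These means include the untreated arrays that chose the genes, and genes that passed the filter only with mutant arrays. They are a description, and the part of sex in the genotype gap was not tested with them.

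**Figure D2:**
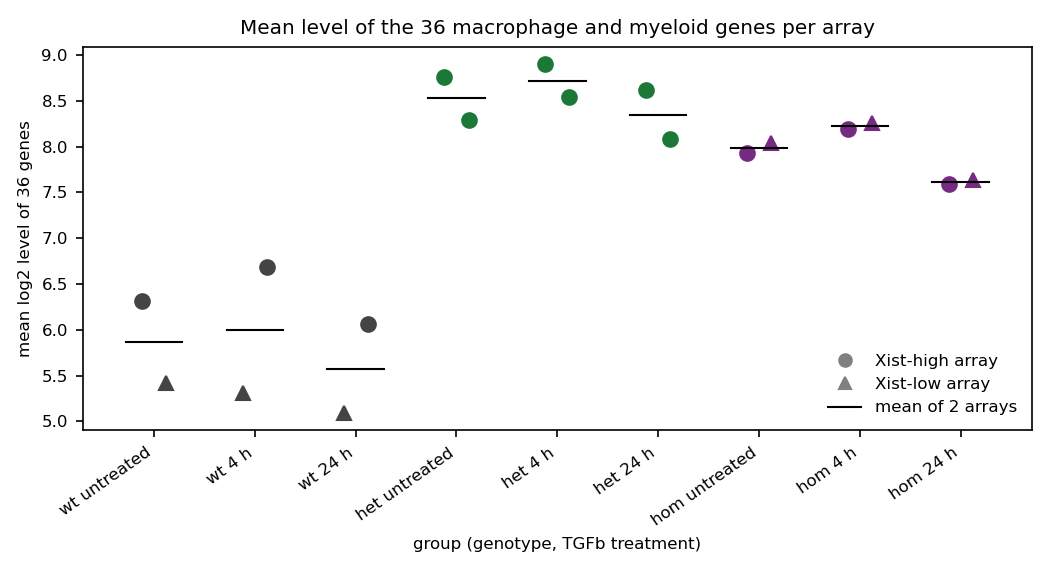
Mean log2 level of the 36 genes in each array by genotype and treatment, circles for Xist-high and triangles for Xist-low arrays, with a line at the mean of the 2 arrays. The wt arrays lie between 5.09 and 6.68 with the Xist-high array on top in each pair, and the lowest mutant array stands at 7.59.

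The 36 genes varied together from array to array. The median Pearson correlation between pairs of them over 18 arrays was 0.92, and that of a gene with the mean of the other 35 was 0.96. These arrays share 3 genotypes, so the value describes the genotype split as well as anything finer. The loosest genes were Itgam at 0.77, Mrc1 at 0.83, Cd68 at 0.84, Ctsc at 0.89 and Csf2rb at 0.89. The 20 other genes most like the mean of the 36, at correlations of 0.96 to 0.99, were Lpxn, C5ar1, Adgre1, Slc15a3, Lcp1, Cfp, Lyz1, C1qa, Fcgr1, Ms4a6c, Fermt3, C1qb, Srgn, Alox5ap, Ms4a6d, Ptpn6, Inpp5d, Ms4a6b, Spi1 and Plek, and 11 of them stood on a list of further macrophage and myeloid genes. Adgre1 encodes a surface antigen used to stain mouse macrophages, and C1qa and C1qb encode chains of complement C1q, which tissue macrophages secrete.

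Spi1, the gene of PU.1, is among those 20, so the start regions of the 36 genes were searched for GAGGAA, the core that PU.1 binds, on both strands. A RefSeq window of 300 bases around the annotated start (build GRCm38.p6) was matched by symbol for 25 of the 36 genes, and 16 of the 25 held the letters (64%), against 31.3% of the 27025 genes with a window. The composite Ets-IRF element, read on both strands and sharing letters with the Ets core, stood in 2 of 25 (Cd68 and Cybb, 8%) against 3.16% of all genes. Shown are the 250 bases before the start for 3 genes that held GAGGAA more than once and behaved differently across the arrays. Clec5a is among the genes with the largest genotype difference, Mrc1 is the gene with the largest difference from untreated cells at 24 h in both mutants, and Itgam is the gene least like the others. Capitals mark GAGGAA or its reverse complement TTCCTC, and each run reads 5′ to 3′ on the strand of the gene (Clec5a chr6:40585806-40586055 minus, Mrc1 chr2:14229164-14229413 plus, Itgam chr7:128062390-128062639 plus).
Clec5a: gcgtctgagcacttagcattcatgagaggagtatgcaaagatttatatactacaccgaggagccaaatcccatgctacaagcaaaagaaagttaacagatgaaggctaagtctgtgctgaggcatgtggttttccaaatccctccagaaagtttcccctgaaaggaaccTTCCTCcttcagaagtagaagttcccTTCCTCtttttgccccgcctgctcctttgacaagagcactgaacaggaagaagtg
Mrc1: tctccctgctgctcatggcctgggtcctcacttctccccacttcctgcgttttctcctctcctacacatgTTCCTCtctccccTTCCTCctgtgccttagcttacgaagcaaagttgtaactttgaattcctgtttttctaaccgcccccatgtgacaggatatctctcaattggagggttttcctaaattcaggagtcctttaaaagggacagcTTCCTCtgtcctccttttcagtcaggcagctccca
Itgam: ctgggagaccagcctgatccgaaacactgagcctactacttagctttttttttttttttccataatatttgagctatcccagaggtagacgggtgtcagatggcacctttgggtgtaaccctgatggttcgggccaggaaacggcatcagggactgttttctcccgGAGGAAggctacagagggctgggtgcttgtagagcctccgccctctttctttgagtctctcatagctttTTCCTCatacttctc
Clec5a and Itgam show 2 sites each in these bases and Mrc1 shows 3. A match is a string of letters and not a measured binding site, and no binding was measured here.

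In untreated cells, the comparison in which the genes were noticed, all 36 lay higher in both mutant genotypes. The log2 difference of heterozygous from wt ran from 1.01 (Ctsc) to 3.50 (Ly86) with a median of 2.71, and that of homozygous from wt from 1.04 (Ctsc) to 3.19 (Clec4n) with a median of 2.15. Over 4-fold were 35 genes in heterozygous and 21 in homozygous cells. For each of the 36 genes both mutant arrays of either genotype lay above both wt arrays. Over all 6 arrays of each genotype, which include the untreated ones that chose the genes, 33 of 36 genes had every heterozygous array above every wt array (1.45% of all kept genes did) and 31 every homozygous array (1.41%), and nothing is read from these counts. The overlapping genes were Cd68, Mrc1 and Tyrobp in both, and also Cybb and Cd14 in homozygous arrays.

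The arrays of TGFb-treated cells had not entered that comparison, and the same difference was tested there with the mean of 4 h and 24 h, 4 arrays against 4. They may share cultures with the untreated arrays and with each other, which the labels do not state. The test may then not be independent of the choice of genes. Deviations of same-numbered arrays correlated across times at 0.38 to 0.61 within the mutants. In wt cells they correlated at 0.57 between 4 h and 24 h, and at -0.49 and -0.66 with untreated arrays. Of the 36 genes, 25 pass the filter through wt arrays alone, at log2 5 or more in at least 2 of them, a split added after the data were seen. In limma all 25 were called higher in heterozygous cells (2.12% of all genes that pass in wt arrays) and 23 in homozygous cells (2.65%). The 2 without a call in homozygous cells were Ptprc at 2.08 ± 0.54 (adjusted p = 0.0562) and Cd14 at 1.57 ± 0.43 (adjusted p = 0.0647). The other 11 genes, Arhgap30, Clec5a, Cybb, Irf8, Itgam, Itgb2, Ncf4, Pik3ap1, Rac2, Stab1 and Tlr13, passed only with the mutant arrays in which they are high, so they had to differ and their differences are a description. With them, the counts were 36 genes in heterozygous and 33 in homozygous cells (2.55% and 2.97% of all kept genes were called higher). By probe set they were 50 of 50 (1.97%) and 47 of 50 (2.47%). The log2 difference of the 36 genes had a median of 2.82 and 2.14, beside 0.01 and less than 0.01 over all kept probe sets. Each ± is the standard error of the fit, which pools the spread over all 9 groups.

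With the Xist class as a covariate all 50 probe sets were called in both mutants. A fit on the compared groups alone called 33 in heterozygous and 23 in homozygous cells. Leaving out single arrays gave 45 to 50 and 30 to 48 calls, and the 30 came without the second homozygous 4 h array. No share over all probe sets is given for these settings, so the counts show only how far the calls held. Of the 33 homozygous gene calls 12 were lost with at least 1 of the 18 arrays left out, Tyrobp with any of 13, Mrc1 with any of 11, Lyz2, Mpeg1 and Itgb2 with any of 5, Rac2 with any of 4, Cd53 with any of 3, Csf1r, Lmo2 and Pik3ap1 with either of 2, and Fcgr3 and Cybb with 1.

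**Figure D3:**
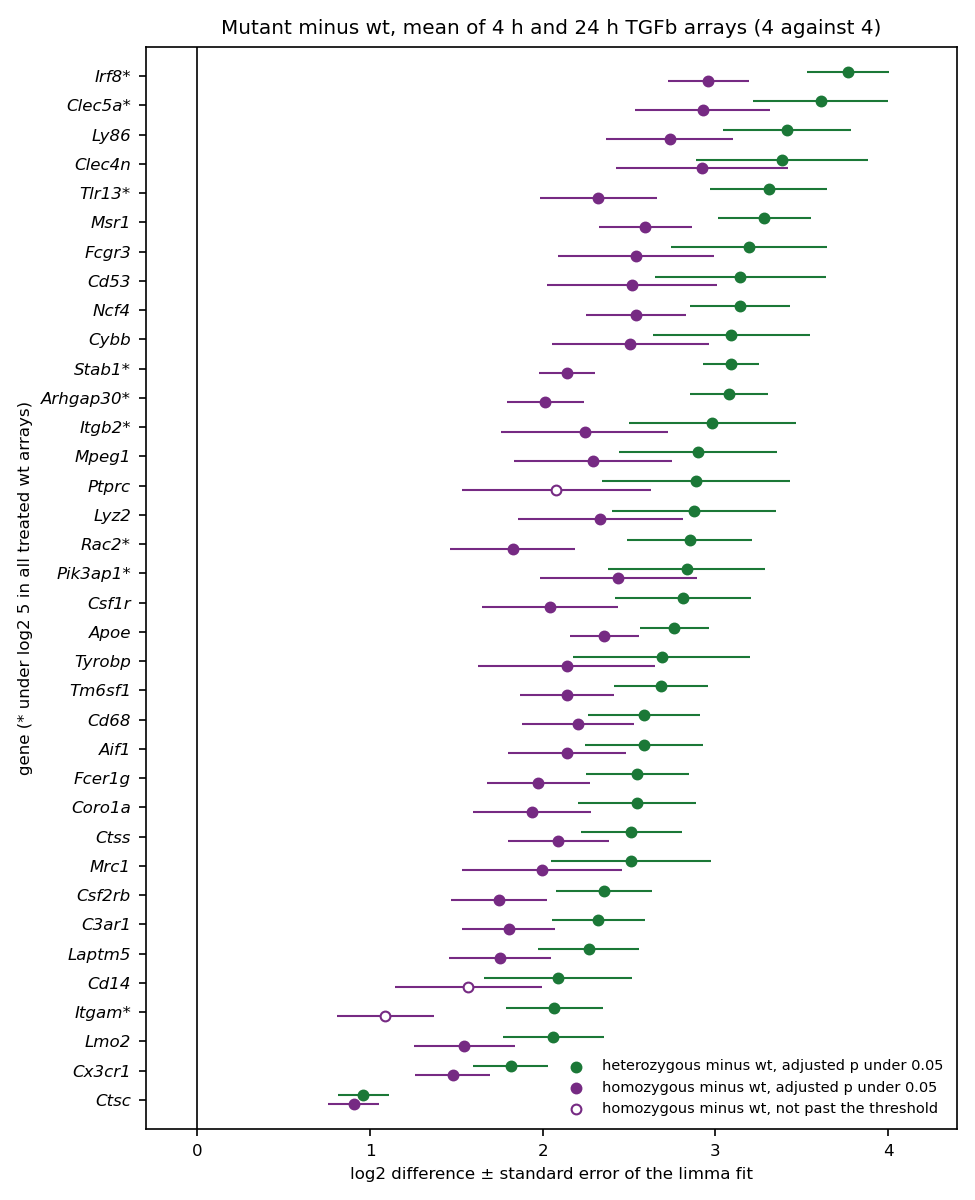
Log2 difference of heterozygous (green) and homozygous (purple) from wt cells over the TGFb-treated arrays, with the standard error of the limma fit, filled where the adjusted p was under 0.05. All differences lie above 0, Ctsc is the smallest at 0.96 and 0.91, and an asterisk marks the genes under log2 5 in all treated wt arrays, which passed the filter only with mutant arrays and whose size is uncertain.

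Among the growth factor and chemokine receptors, Csf1r, the receptor on which macrophage survival rests, read 8.79 and 7.83 untreated, 7.77 and 9.49 at 4 h and 6.71 and 8.53 at 24 h in wt cells. Heterozygous Csf1r levels were 11.09 and 10.54 untreated, 11.04 and 11.01 at 4 h and 10.91 and 10.80 at 24 h. Homozygous Csf1r levels were 9.90 and 10.01 untreated, 10.42 and 10.40 at 4 h and 9.85 and 10.01 at 24 h. The lowest mutant array stood above the highest wt array, and the wt arrays were spread more widely than those of either mutant. Its difference from wt over the treated arrays was 2.81 ± 0.39 in heterozygous (adjusted p = 0.00166) and 2.04 ± 0.39 in homozygous cells (adjusted p = 0.0138), the homozygous call being lost without the second homozygous array at 4 h (0.0623) or 24 h (0.0636). Cx3cr1, the fractalkine receptor of tissue macrophages and microglia, read 5.64 and 5.51 untreated, 5.48 and 6.55 at 4 h and 5.63 and 6.06 at 24 h in wt cells. Heterozygous Cx3cr1 levels were 7.87 and 7.74 untreated, 8.05 and 8.32 at 4 h and 7.52 and 7.10 at 24 h. Homozygous Cx3cr1 levels were 6.75 and 7.34 untreated, 7.67 and 7.97 at 4 h and 7.12 and 6.88 at 24 h. For this gene homozygous and heterozygous arrays overlapped, and both lay above every wt array. The difference of Cx3cr1 from wt was 1.82 ± 0.22 in heterozygous (adjusted p = 0.000496) and 1.48 ± 0.22 in homozygous cells (adjusted p = 0.0038), and its second probe set showed 2.78 and 2.12.

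Csf2rb encodes the chain shared by the receptors for IL-3, IL-5 and GM-CSF, and read 5.41 and 4.39 untreated, 4.41 and 5.46 at 4 h and 5.41 and 6.44 at 24 h in wt cells. Heterozygous Csf2rb levels were 7.53 and 7.19 untreated, 7.75 and 7.35 at 4 h and 8.17 and 7.87 at 24 h. Homozygous Csf2rb levels were 6.95 and 6.86 untreated, 6.92 and 6.92 at 4 h and 7.44 and 7.44 at 24 h. Its mean was highest at 24 h in all 3 genotypes, without a call. For Csf2rb the difference from wt was 2.36 ± 0.28 in heterozygous (adjusted p = 0.000455) and 1.75 ± 0.28 in homozygous cells (adjusted p = 0.00551). C3ar1 encodes the receptor for the complement fragment C3a and read 6.90 and 5.92 untreated, 5.43 and 6.58 at 4 h and 5.14 and 5.78 at 24 h in wt cells. Heterozygous C3ar1 levels were 8.71 and 8.31 untreated, 8.43 and 8.05 at 4 h and 8.15 and 7.59 at 24 h. Homozygous C3ar1 levels were 8.17 and 8.24 untreated, 7.74 and 8.02 at 4 h and 7.19 and 7.20 at 24 h. Levels at 24 h were below those of untreated cells in every genotype for C3ar1. C3ar1 differed from wt by 2.32 ± 0.27 in heterozygous (adjusted p = 0.000406) and 1.80 ± 0.27 in homozygous cells (adjusted p = 0.0042), with 2.28 to 2.58 and 1.48 to 1.80 over its 3 probe sets.

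Of the Fc receptors and their adaptors, Fcgr3, the low-affinity receptor for IgG, read 7.15 and 5.46 untreated, 6.03 and 8.02 at 4 h and 5.57 and 7.17 at 24 h in wt cells. Heterozygous Fcgr3 levels were 9.96 and 9.39 untreated, 10.29 and 10.03 at 4 h and 9.81 and 9.45 at 24 h. Homozygous Fcgr3 levels were 9.21 and 9.15 untreated, 9.59 and 9.79 at 4 h and 8.68 and 8.91 at 24 h. The wt pairs were 1.60 to 2.00 log2 units apart, more than any mutant pair. Fcgr3 differed from wt by 3.20 ± 0.45 in heterozygous (adjusted p = 0.00179) and 2.54 ± 0.45 in homozygous cells (adjusted p = 0.00972), the homozygous call being lost without the second homozygous 4 h array (0.0515). Tyrobp encodes the adaptor DAP12, which passes on signals of TREM2 and related receptors, and read 7.86 and 6.99 untreated, 7.24 and 9.98 at 4 h and 6.02 and 7.98 at 24 h in wt cells. Heterozygous Tyrobp levels were 10.34 and 9.92 untreated, 11.02 and 10.56 at 4 h and 10.52 and 9.86 at 24 h. Homozygous Tyrobp levels were 9.54 and 9.61 untreated, 10.41 and 10.30 at 4 h and 9.50 and 9.55 at 24 h. The second wt 4 h array reached 9.98 and overlapped the mutant ranges. Tyrobp differed from wt by 2.69 ± 0.51 in heterozygous (adjusted p = 0.0129) and 2.14 ± 0.51 in homozygous cells (adjusted p = 0.0391). The Tyrobp call in heterozygous cells was lost without the first heterozygous 4 h array (adjusted p = 0.0632) or the first 24 h array (0.0745). The homozygous Tyrobp call was lost without any of 13 of the 18 arrays (0.0521 to 0.133), among them the first wt 24 h array (0.108) and all 6 homozygous arrays. Fcer1g, the common Fc receptor gamma chain, gave 2.55 ± 0.30 in heterozygous (adjusted p = 0.000421) and 1.97 ± 0.30 in homozygous cells (adjusted p = 0.0042).

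Scavenger receptors and lectins take up lipoproteins, sugars and microbes. Msr1, the class A scavenger receptor, read 7.78 and 6.65 untreated, 6.32 and 7.06 at 4 h and 5.84 and 6.76 at 24 h in wt cells. Heterozygous Msr1 levels were 10.36 and 9.94 untreated, 10.05 and 9.63 at 4 h and 9.98 and 9.46 at 24 h. Homozygous Msr1 levels were 9.39 and 9.52 untreated, 8.95 and 9.10 at 4 h and 8.99 and 9.32 at 24 h. No mutant array came within 1 log2 unit of the highest wt array. Its difference from wt was 3.28 ± 0.27 in heterozygous (adjusted p = 2.77e-05) and 2.59 ± 0.27 in homozygous cells (adjusted p = 0.000416). Mrc1, the mannose receptor of tissue macrophages, read 5.94 and 3.63 untreated, 3.48 and 5.16 at 4 h and 3.41 and 3.48 at 24 h in wt cells. Heterozygous Mrc1 levels were 8.22 and 7.84 untreated, 7.56 and 6.81 at 4 h and 5.99 and 5.22 at 24 h. Homozygous Mrc1 levels were 7.77 and 7.78 untreated, 6.57 and 6.85 at 4 h and 4.61 and 5.50 at 24 h. Within each genotype the level was lowest at 24 h, and in wt cells only the Xist-high arrays untreated and at 4 h exceeded log2 5. Over the treated arrays Mrc1 differed by 2.51 ± 0.46 in heterozygous (adjusted p = 0.0109) and 2.00 ± 0.46 in homozygous cells (adjusted p = 0.0343), a size that is uncertain because 3 of 4 wt arrays were under log2 5. Its heterozygous call was lost without the first heterozygous 4 h array (adjusted p = 0.0594) or the first 24 h array (0.0665). The homozygous Mrc1 call was lost without any of 11 of the 18 arrays (0.0512 to 0.154), among them the first wt 4 h array, both wt 24 h arrays and all 6 homozygous arrays.

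Clec4n encodes the fungal receptor dectin-2 and read 5.23 and 3.51 untreated, 3.27 and 5.20 at 4 h and 3.32 and 4.88 at 24 h in wt cells. Heterozygous Clec4n levels were 8.08 and 7.35 untreated, 8.62 and 7.33 at 4 h and 7.40 and 6.84 at 24 h. Homozygous Clec4n levels were 7.43 and 7.69 untreated, 7.93 and 7.65 at 4 h and 6.69 and 6.10 at 24 h. Only the Xist-high wt arrays came near or above log2 5 for Clec4n, so its difference of 3.39 ± 0.50 in heterozygous (adjusted p = 0.00253) and 2.92 ± 0.50 in homozygous cells (adjusted p = 0.00788) is uncertain in size. Clec5a, another DAP12-linked lectin, was under log2 5 in every wt array and at least 4.92-fold higher in heterozygous and at least 3.06-fold in homozygous cells. Stab1, a scavenger receptor, was at least 2.95-fold and 1.53-fold higher. Cd68, a lysosomal glycoprotein, read 5.90 and 5.54 untreated, 5.49 and 6.44 at 4 h and 4.35 and 3.56 at 24 h in wt cells. Heterozygous Cd68 levels were 8.27 and 7.64 untreated, 8.77 and 8.29 at 4 h and 7.21 and 5.91 at 24 h. Homozygous Cd68 levels were 7.27 and 7.59 untreated, 7.94 and 8.27 at 4 h and 5.78 and 6.67 at 24 h. The Cd68 mean was lowest at 24 h in each genotype, and the mutant arrays at 24 h overlapped the wt range of earlier times. Cd68 differed from wt by 2.59 ± 0.32 in heterozygous (adjusted p = 0.000769) and 2.20 ± 0.32 in homozygous cells (adjusted p = 0.0038).

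Pattern receptors and their partners followed the same order. Tlr13, which senses bacterial ribosomal RNA, was at least 3.83-fold higher in heterozygous and 1.93-fold in homozygous cells. Ly86, the MD-1 partner of CD180, differed by 3.41 ± 0.37 and 2.74 ± 0.37, and Cd14, a lipopolysaccharide co-receptor, by 2.09 ± 0.43 in heterozygous cells (adjusted p = 0.0205). The size for Ly86 is uncertain, because most treated wt arrays were under log2 5. The call for Cd14 was lost without any 1 of 5 arrays, the first wt 24 h array and each heterozygous treated array (adjusted p 0.0562 to 0.0937). Pik3ap1, an adaptor for PI3 kinase, read 2.14 to 2.20 in the 6 wt arrays, 3.83 to 6.34 in heterozygous and 3.97 to 5.37 in homozygous arrays.

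Enzymes of the lysosome and of the oxidative burst were part of the set. Cybb, the gp91phox subunit of the phagocyte NADPH oxidase, read 4.60 and 3.78 untreated, 3.57 and 6.14 at 4 h and 2.87 and 4.17 at 24 h in wt cells. Heterozygous Cybb levels were 7.91 and 7.20 untreated, 7.66 and 7.55 at 4 h and 7.13 and 6.79 at 24 h. Homozygous Cybb levels were 6.58 and 6.80 untreated, 7.15 and 7.13 at 4 h and 6.51 and 5.998 at 24 h. One wt array, the Xist-high one at 4 h, exceeded log2 5 and overlapped the homozygous range. Cybb differed from wt by 3.09 ± 0.45 in heterozygous and 2.51 ± 0.45 in homozygous cells, uncertain in size. Ncf4, another oxidase subunit, gave 3.14 ± 0.29 and 2.54 ± 0.29, and Rac2, the blood cell GTPase that activates the oxidase, was at least 1.67-fold higher in heterozygous cells. The size for Ncf4 is uncertain too, because most treated wt arrays were under log2 5. Mpeg1, the pore-forming perforin-2 of phagocytes, gave 2.90 ± 0.46 and 2.29 ± 0.46, and Tm6sf1, a membrane protein, 2.69 ± 0.27 and 2.14 ± 0.27. The homozygous Mpeg1 call was lost without the first wt 24 h array or any homozygous treated array (0.0502 to 0.0738).

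Lyz2, the macrophage lysozyme, read 10.38 and 8.69 untreated, 8.77 and 10.99 at 4 h and 8.01 and 9.76 at 24 h in wt cells. Heterozygous Lyz2 levels were 12.52 and 12.33 untreated, 12.66 and 12.50 at 4 h and 12.24 and 11.64 at 24 h. Homozygous Lyz2 levels were 11.88 and 11.96 untreated, 12.18 and 12.22 at 4 h and 11.17 and 11.30 at 24 h. The wt pairs of Lyz2 were 1.69 to 2.22 log2 units apart, and both mutants stayed above all of them. Lyz2 differed from wt by 2.88 ± 0.48 in heterozygous (adjusted p = 0.00528) and 2.33 ± 0.48 in homozygous cells (adjusted p = 0.0188). The homozygous Lyz2 call was lost without the first wt 24 h array or any homozygous treated array (0.057 to 0.0819). Ctss, the cathepsin of the antigen-presenting compartment, read 10.27 and 9.11 untreated, 9.08 and 10.10 at 4 h and 9.51 and 10.50 at 24 h in wt cells. Heterozygous Ctss levels were 12.40 and 11.78 untreated, 12.39 and 11.91 at 4 h and 12.68 and 12.25 at 24 h. Homozygous Ctss levels were 11.52 and 11.64 untreated, 11.84 and 11.93 at 4 h and 11.89 and 11.88 at 24 h. No mutant array overlapped a wt array, and its difference from wt was 2.51 ± 0.29 in heterozygous (adjusted p = 0.000406) and 2.09 ± 0.29 in homozygous cells (adjusted p = 0.00297). Ctsc, a protease also made by fibroblasts, had the smallest difference of the 36 genes, 0.96 ± 0.15 in heterozygous (adjusted p = 0.0035) and 0.91 ± 0.15 in homozygous cells (adjusted p = 0.00672), and stood at 11.96 to 12.85 in wt arrays.

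Irf8, the partner of PU.1 in myeloid gene control, read 3.64 and 3.35 untreated, 3.01 and 4.16 at 4 h and 3.03 and 3.70 at 24 h in wt cells. Heterozygous Irf8 levels were 6.11 and 6.33 untreated, 7.28 and 7.30 at 4 h and 7.45 and 6.94 at 24 h. Homozygous Irf8 levels were 6.11 and 6.05 untreated, 6.60 and 6.47 at 4 h and 6.12 and 6.54 at 24 h. All wt arrays were dim, and every mutant array exceeded log2 6. It was at least 4.73-fold higher in heterozygous and at least 2.70-fold in homozygous cells, as a description, since it passed the filter only with mutant arrays. Lmo2, a blood transcription cofactor that endothelium also uses, gave 2.06 ± 0.29 and 1.55 ± 0.29, the homozygous call being lost without the second homozygous array at 4 h (0.0623) or 24 h (0.0558). The size for Lmo2 is uncertain, because most treated wt arrays were under log2 5. Apoe, an apolipoprotein that macrophages secrete, read 8.10 and 8.91 untreated, 8.73 and 8.97 at 4 h and 7.90 and 7.91 at 24 h in wt cells. Heterozygous Apoe levels were 10.95 and 10.24 untreated, 11.58 and 11.19 at 4 h and 11.23 and 10.56 at 24 h. Homozygous Apoe levels were 10.23 and 10.37 untreated, 11.26 and 11.26 at 4 h and 10.16 and 10.25 at 24 h. Unlike the other genes, Apoe was not higher in the Xist-high wt array of untreated cells. Its difference from wt was 2.76 ± 0.20 in heterozygous (adjusted p = 1.37e-05) and 2.36 ± 0.20 in homozygous cells (adjusted p = 8.72e-05).

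Ptprc encodes CD45, the phosphatase of all nucleated blood cells, and read 5.60 and 4.49 untreated, 3.64 and 6.39 at 4 h and 3.75 and 5.99 at 24 h in wt cells. Heterozygous Ptprc levels were 8.18 and 7.64 untreated, 7.98 and 7.69 at 4 h and 8.06 and 7.59 at 24 h. Homozygous Ptprc levels were 7.18 and 7.37 untreated, 7.15 and 7.19 at 4 h and 7.03 and 6.72 at 24 h. The wt pairs differed by 1.11 to 2.75 log2 units, most at 4 h, and the mutant pairs by less than any wt pair. Its difference was 2.89 ± 0.54 in heterozygous cells (adjusted p = 0.0124), a call lost without the first heterozygous array at 4 h (0.0584) or 24 h (0.0682). Itgb2, the beta chain of the leukocyte integrins, was at least 3.49-fold and 2.09-fold higher than wt. Itgam, the alpha chain of Mac-1, was at least 1.55-fold higher in heterozygous cells, and its homozygous treated arrays of 3.85, 4.63, 4.54 and 5.60 straddled log2 5. The leukocyte genes Laptm5, Cd53, Coro1a and Aif1 were called higher in both mutants, Cd53 in homozygous cells not without the first wt 24 h array (0.0532) or the second homozygous array at 4 h (0.0763) or 24 h (0.0735), with Coro1a, an actin regulator, at 2.55 ± 0.34 and 1.94 ± 0.34 and Aif1, known as IBA1, at 2.58 ± 0.34 and 2.14 ± 0.34. Msr1, Csf1r and 8 more genes with several kept probe sets showed the same direction in all of them.

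Homozygous cells were lower than heterozygous cells in the mean of the treated arrays for all 36 genes, by a median of 0.59 log2 units (median over all kept probe sets -0.01), yet none of the 50 probe sets passed the test (0.0633% of all probe sets did, either direction), while 14 had an unadjusted p under 0.05. The largest gaps were Arhgap30 at -1.07 ± 0.23 (adjusted p = 0.294), Rac2 at -1.02 ± 0.36 (adjusted p = 1) and Tlr13 at -0.99 ± 0.34 (adjusted p = 1). Stab1 came nearest to the threshold with -0.95 ± 0.16 (adjusted p = 0.101). With a crossed block, which pairs arrays across times by Xist class in wt and by label number in the mutants, a pairing chosen after seeing the data that the labels do not state, 22 of the 50 were called. The share of all probe sets called with it is not given, so nothing is read from that count. Untreated, 1 of 50 probe sets was higher in homozygous than in heterozygous cells. The 2 comparisons with wt share the wt arrays, so their likeness is not independent evidence.

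The number of these genes called after TGFb1 depended on the fit, including whether arrays were paired. In the main fit, which is unpaired, 0 of 50 probe sets were called at 4 h in wt cells (17.1% of all probe sets), 1 in heterozygous cells (26.5%) and 2 in homozygous cells (35%), all shares that count either direction. At an unadjusted p under 0.05 the counts at 4 h were 1, 4 and 6. The crossed block called 6, 12 and 15 at 4 h, 9, 9 and 12 at 24 h, and 21, 20 and 27 between the times. Other unpaired fits also moved the counts. At 4 h the fit on the compared groups alone called 4 in heterozygous and 30 in homozygous cells. Weighting the arrays gave 3 and 12 there, and no filter 0 and 0. The share of all probe sets called with the crossed block or with these fits is not given, so these counts are not read as a response particular to the 36 genes. The gene values that follow are of the main unpaired fit. In heterozygous cells Irf8 rose by 1.06 ± 0.33 (adjusted p = 0.0337), both 4 h arrays lying above both untreated ones. In homozygous cells Apoe rose by 0.96 ± 0.28 (adjusted p = 0.0194) from 10.23 and 10.37 to 11.26 in both arrays. The other homozygous call was 1 of 3 Laptm5 probe sets, which fell by 0.99, while the brightest one of that gene read 10.37 and 10.60 untreated and 11.03 and 10.91 at 4 h. Irf8 and Apoe lost the call when any 1 of the 4 compared arrays was left out, with adjusted p of 0.0931 to 0.153 and of 0.064 to 0.101. The median change of the 36 genes at 4 h was 0.12 in wt, 0.19 in heterozygous and 0.30 in homozygous cells.

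At 24 h, 1 of 50 probe sets was called in wt (9.14% of all), 0 in heterozygous (5.07%) and 3 in homozygous cells (6.44%), with 5, 5 and 6 at an unadjusted p under 0.05. Cd68 fell in wt cells, from 5.90 and 5.54 to 4.35 and 3.56, by at least 1.65-fold (adjusted p = 0.0312). Mrc1 fell in homozygous cells by 2.72 ± 0.66 (adjusted p = 0.026), from 7.77 and 7.78 to 4.61 and 5.50. Stab1 fell there by 0.90 ± 0.23 (adjusted p = 0.0343), and so did 1 of 3 C3ar1 probe sets, by at least 1.66-fold (adjusted p = 0.0107). In heterozygous cells Mrc1 went from 8.22 and 7.84 to 5.99 and 5.22, a change of -2.42 ± 0.66 without a call (adjusted p = 0.0541). Mrc1 and Stab1 lost the call without any 1 of the 4 compared homozygous arrays (adjusted p 0.0636 to 0.22 and 0.111 to 0.254), and Cd68 without either untreated wt array or the second wt 24 h array (0.078 to 0.214).

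From 4 h to 24 h, Cd68 fell in all 3 genotypes, by at least 1.96-fold in wt (adjusted p = 0.00655), by 1.97 ± 0.46 in heterozygous (adjusted p = 0.00763) and by 1.88 ± 0.46 in homozygous cells (adjusted p = 0.00848). The call was lost in each genotype without either of 2 arrays, at adjusted p of 0.0682 and 0.0613 in wt (second 4 h or second 24 h array), 0.0576 and 0.0843 in heterozygous (first 4 h or second 24 h array) and 0.0572 and 0.0864 in homozygous cells (second 4 h or first 24 h array). Apoe fell in wt by 0.94 ± 0.28 (adjusted p = 0.0232) and in homozygous cells by 1.06 ± 0.28 (adjusted p = 0.0133). In heterozygous cells Apoe differed by -0.49 ± 0.28 between the times (adjusted p = 0.211). The Apoe calls were lost without the second wt 4 h array or either wt 24 h array (0.0807 to 0.127), and without any compared homozygous array (0.0549 to 0.0729).

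In all, 4 of 50 probe sets were called between 4 h and 24 h in wt (32.5% of all), 5 in heterozygous (29.1%) and 8 in homozygous cells (33.3%). Among them Ncf4 fell in wt by at least 1.32-fold (adjusted p = 0.00675; 0.0697 without the second 4 h array and 0.0633 without the first 24 h array). Cx3cr1 fell in heterozygous cells by 0.88 ± 0.31 (adjusted p = 0.0491), a call lost without any of 14 of the 18 arrays (0.0524 to 0.254). Rac2 and Arhgap30 fell in homozygous cells by at least 1.37-fold and 1.12-fold, with adjusted p of 0.0424 and 0.0414 that reached 0.21 and 0.216 with an array left out. C3ar1 fell in 1 further probe set in heterozygous and 2 in homozygous cells, and a second Cx3cr1 probe set in homozygous cells. One Ctsc probe set rose in all 3 genotypes, by 1.41 in wt, 0.90 in heterozygous and 1.09 in homozygous cells, while the brighter one read 11.96 to 13.45 at 4 h and 12.70 to 13.73 at 24 h without a call. A Laptm5 probe set rose by 0.98 in heterozygous cells.

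**Figure D4:**
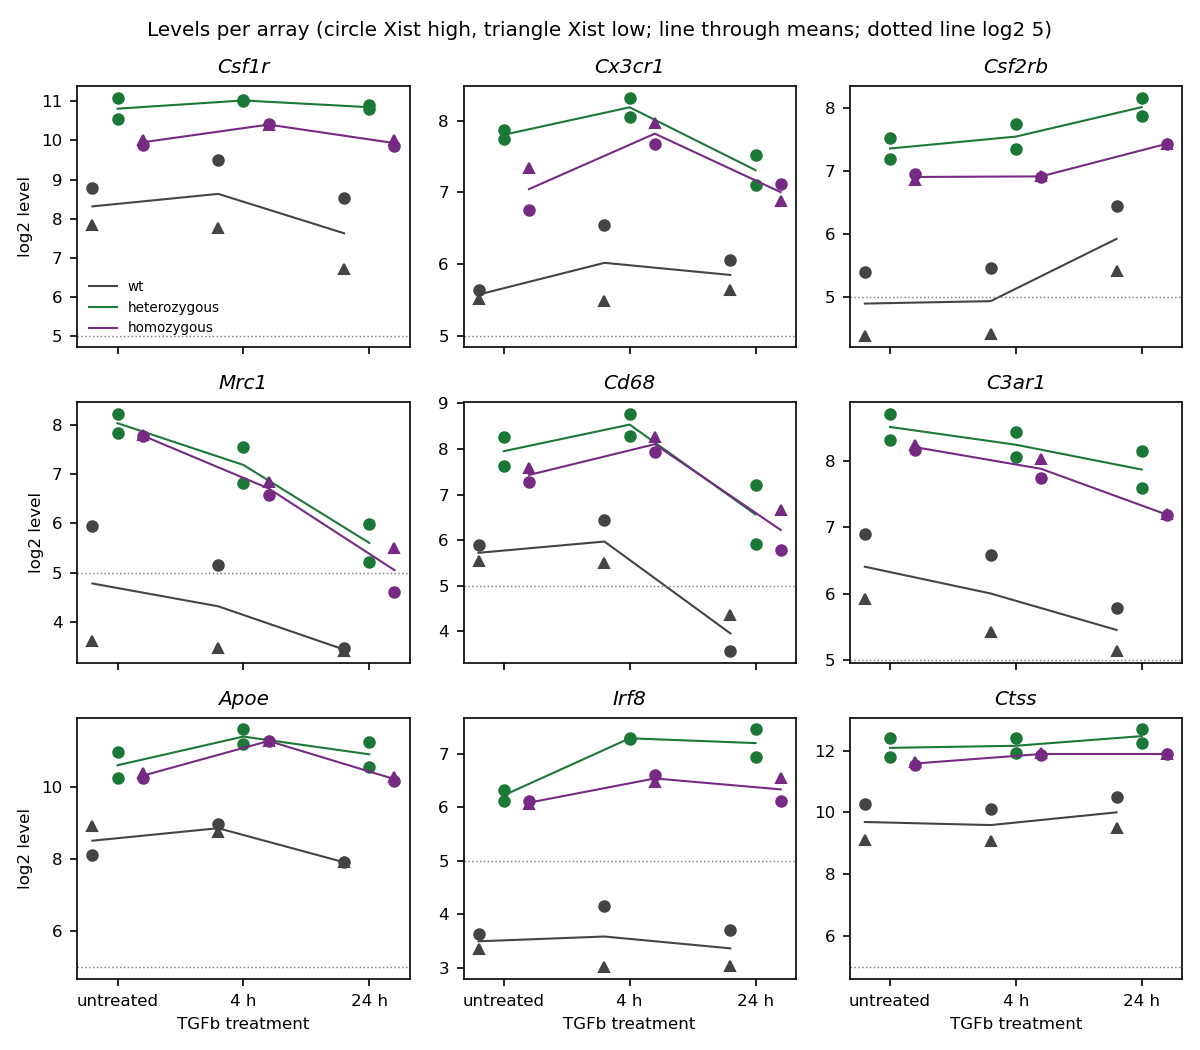
Log2 level of 9 genes in each array, untreated and after 4 h and 24 h of TGFb1, by genotype, with lines through the means of 2 arrays and a dotted line at log2 5. Mrc1, Cd68 and C3ar1 are lowest at 24 h in each genotype, Csf2rb is highest at 24 h, and the gap between wt and mutant cells remains at each time.

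The response of the mutants was also set against that of wt cells, in a comparison added after the data were seen. None of the 50 probe sets was called in the 4 tests of limma (mutant response minus wt response in each mutant at each time), where 0% of all probe sets were called, and 0, 2, 0 and 1 of them had an unadjusted p under 0.05. The lowest adjusted p was 0.666. The 6 comparisons with untreated cells share the untreated arrays of each genotype, so they are given side by side and not set against each other.

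Because the 36 genes moved together from array to array, their TGFb change was also expressed relative to the mean change of all 36, a scale added after the data were seen and given with no test. On it Mrc1 stood at -1.05, -2.25 and -2.35 at 24 h in wt, heterozygous and homozygous cells, and Cd68 at -1.48, -1.21 and -0.84. Csf2rb stood at 1.32, 0.83 and 0.90. C3ar1, Cd14, Tlr13, Stab1 and Mrc1 lay below the mean of the set in all 6 responses, and Aif1, Clec5a and Ly86 above it. Tlr13, Stab1 and Clec5a were under log2 5 in every wt array, so nothing is read from their wt responses. Mrc1 and Ly86 were under it in all wt 24 h arrays. In wt cells, taken within the Xist class, 9 genes were higher and 10 lower at 4 h in both classes and 17 went opposite ways. At 24 h, 8 genes were higher and 18 lower in both. These counts include 9 genes that reached log2 5 in no wt array, whose direction there is uncertain.

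Further macrophage and myeloid genes that are not among the 36 were read in the same way. Of 66 such genes on the array 36 were kept, and over the treated arrays 29 were called higher and 1 lower in heterozygous cells, 24 higher and 1 lower in homozygous cells (2.55% and 2.97% of all kept genes were called higher). Their median log2 difference was 2.06 and 1.37. The list was drawn up with earlier results of these arrays known. Of its kept genes, Spi1, Vav1, Cd84, Fcgr2b, Was, Itgal, Ptpn6, Evi2a, Trem2 and Nckap1l reached log2 5 in fewer than 2 wt arrays. They passed the filter only with mutant arrays, so the counts and medians that include them are a description. The complement genes C1qa, C1qb and C1qc differed by 2.36 to 2.99 in homozygous cells. Spi1, the gene of PU.1, was at least 3.38-fold higher in heterozygous and 2.17-fold in homozygous cells, as a description. The 1 gene called lower was Lpl, the lipoprotein lipase that fibroblasts and fat cells also make, at -0.61 ± 0.11 and -0.77 ± 0.11. Over 18 arrays the mean of these genes correlated with that of the 36 at 0.98, and at 0.99 after the group means were taken off.

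Trem2, the receptor that signals through the DAP12 encoded by Tyrobp, changed with TGFb1 in the mutants. It read 5.39 and 5.26 untreated, 7.18 and 6.70 at 4 h and 4.71 and 4.09 at 24 h in heterozygous cells, and 3.54 and 4.09, 6.15 and 6.96, and 3.31 and 3.30 in homozygous cells. In wt cells 1 array exceeded log2 5, the Xist-high one at 4 h. The rise at 4 h was 1.62 ± 0.46 in heterozygous cells (adjusted p = 0.0224) and at least 2.93-fold in homozygous cells (adjusted p = 0.000974). From 4 h to 24 h it fell by at least 3.84-fold and 2.93-fold. Of the 36 kept genes of this list, 0, 4 and 2 were called higher at 4 h in wt, heterozygous and homozygous cells, where 8.68%, 15.2% and 19.7% of all kept genes were.

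No gene of the other blood and vessel cell lists was called between a mutant and wt. None of the 11 neutrophil, 11 T, B and NK cell, 9 erythroid and 7 liver genes on the array was kept, and the highest neutrophil value in any array was 3.15, for Csf3r. The summed intensity of the 36 member genes was 7228 to 15532 in wt, 32682 to 46390 in heterozygous and 26332 to 35322 in homozygous arrays. The sums of the endothelial genes were 457 to 980, 480 to 920 and 480 to 924, and those of the mast cell genes 159 to 330, 154 to 343 and 168 to 454. Of these, 2 of 11 endothelial genes (Emcn and Egfl7), 1 of 9 mast cell genes (Mcpt8) and 3 of 6 platelet genes (Pf4, Ppbp and Gp1bb) were kept, and none was called between a mutant and wt. The 3 kept osteoclast genes, Mmp9, Ctsk and Acp5, were not called either, with sums over all 8 of 636 to 1808, 819 to 3160 and 987 to 2398.

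**Figure D5:**
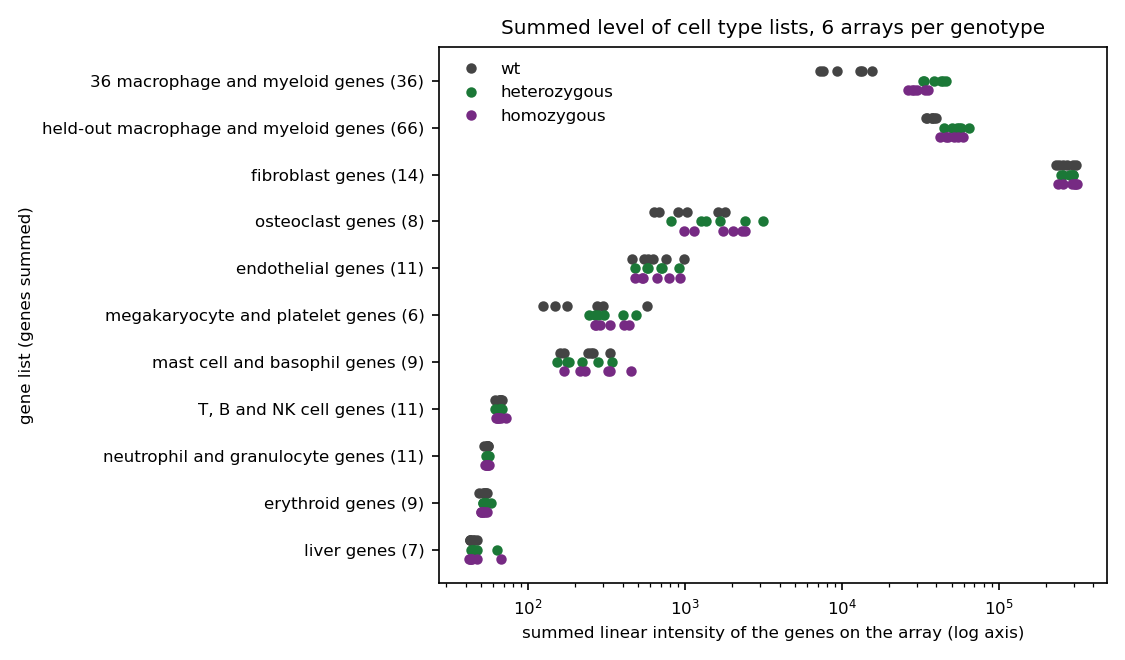
Summed linear intensity of each gene list in each of the 18 arrays, on a log axis, by genotype. The 36 genes and the further macrophage list set the wt arrays apart from the mutant arrays, while the fibroblast, endothelial, mast cell, lymphocyte, neutrophil and erythroid sums overlap between genotypes. Linear sums are weighted to the brightest genes. In the further list these are Ctsz, Ctsb and Ctsd, at log2 12.84 to 14.21 in wt and mutant arrays, so its sum says little of its dimmer genes.

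Of the genes that mark macrophages settled in tissues, Folr2, F13a1, Lyve1, Timd4, Cd163, Sall1, P2ry12, Vsig4 and Clec4f were not kept. Mrc1 and Cx3cr1 were, as were Id3, Gas6, Maf and Tmem119. In wt arrays Id3 stood at 11.86 to 13.33, Gas6 at 10.16 to 10.91, Maf at 9.24 to 9.75 and Tmem119 at 8.38 to 9.48. These genes were thus well detected in every wt array too, so the presence of Id3, Gas6, Maf and Tmem119 is not read as a sign of macrophages. Gas6 was nevertheless called higher in both mutants than in wt cells, as given below with the ligands. Of 12 activation genes on the array 4 were kept, Arg1, Cd40, Cd80 and Ptgs2, and none was called between a mutant and wt cells. Cd40 and Ptgs2 rose at 4 h in all 3 genotypes, and Arg1 at 24 h.

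The ligands of the receptors among the 36 genes were also read. Csf1, the ligand of CSF1R, lay at 11.14 to 13.01 in all arrays, and differed from wt by -0.05 ± 0.22 in heterozygous (adjusted p = 0.964) and -0.16 ± 0.22 in homozygous cells (adjusted p = 0.784). It rose at 4 h by 1.05 ± 0.31 in wt, 1.18 ± 0.31 in heterozygous and 1.33 ± 0.31 in homozygous cells (adjusted p = 0.0378, 0.016 and 0.00649). Cx3cl1, the ligand of CX3CR1, rose at 4 h by 1.24 ± 0.21, 0.92 ± 0.21 and 0.80 ± 0.21. Its difference from wt over the treated arrays was 0.54 ± 0.15 in heterozygous (adjusted p = 0.0978) and 0.60 ± 0.15 in homozygous cells (adjusted p = 0.0511). Of 13 ligand and growth factor genes on the array 8 were kept, and 2 were called higher in heterozygous cells (Cd34 and Gas6) and 1 in homozygous cells (Gas6). Il34, the other ligand of CSF1R, was not kept, and neither were Csf2, Il3 and Il5, whose receptors use the chain encoded by Csf2rb.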

How the data were processed

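RNA of 18 samples was read on Affymetrix arrays, 1 array per sample and 2 per group. The deposited values are intensities on a linear scale, made by the authors with GCRMA, which subtracts background and normalizes between arrays, per the submitters' processing notes, with no version stated. Because GCRMA presses dim probe sets together, differences from a level under log2 5 are uncertain in size. Where all arrays of a group were under it, a fold is given as a bound, the mean of the other group over the log2 5 level. Probe sets were named from the platform annotation.

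Intensities were taken to log2, and probe sets at 5 or more in at least 2 of 18 arrays (18958 of 45037, with 64 control probe sets left out) were fitted with limma 3.58.1 in R 4.3.3 (9 group means, 9 residual degrees of freedom, eBayes with a trend). The Benjamini-Hochberg adjustment ran over all 18958 probe sets, and called means an adjusted p under 0.05. The script was tested on simulated data. The 36 genes and all gene lists were chosen with earlier results of these data known. Genes named with values were those called, those described by role in the set, and those whose calls turned on 1 array. Alternatives covered the filter, normalization, a pseudocount of 16, array weights, blocks, the Xist class and leaving out each array. The number of arrays limits the precision.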

Additional observations from a re-analysis of the deposited data

How the results depend on the processing

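The genotype calls held their direction under every alternative run. With each array left out in turn, 45 to 50 of 50 probe sets were called higher in heterozygous and 30 to 48 in homozygous than in wt cells, and 0 to 0 between the mutants. The TGFb counts were 0 to 7 in wt, 0 to 3 in heterozygous and 0 to 5 in homozygous cells at 4 h, 0 to 4, 0 to 2 and 0 to 3 at 24 h, and 2 to 14, 0 to 6 and 0 to 13 from 4 h to 24 h. An array left alone in its group was taken to vary like the other groups. Of the gene calls, 22 of 36 in heterozygous and 11 of 33 in homozygous cells held under all settings that tested them, and no TGFb gene call did.

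In the order wt, heterozygous, homozygous, counts that moved by over 1.5 times were as follows. The fit on the compared groups alone called 33 and 23 against wt and 3 between the mutants, 4 and 30 in heterozygous and homozygous cells at 4 h, 0, 2 and 11 at 24 h, and 0, 8 and 31 between the times. A mean log2 of at least 6, which tests only 32 of the probe sets, left 32 and 30 against wt, 1 in homozygous cells at 4 h, 0 at 24 h, and 3 and 4 in the mutants between the times. Array weights gave 3 and 12 in the mutants at 4 h, 0, 4 and 8 at 24 h, 2 in wt and 23 in homozygous cells between the times, and 1 between the mutants. With no filter, 0 and 0 were called in the mutants at 4 h, 0 in wt and 1 in homozygous cells at 24 h, 2 and 3 in the mutants between the times, and 1 between the mutants. A pseudocount of 16 gave 2 in heterozygous cells at 4 h, 0 in wt and 3 in heterozygous cells at 24 h, 10 and 13 in the mutants between the times, and 1 between the mutants. With 1 probe set per gene, 2 and 1 were called in the mutants at 4 h, 1 in heterozygous cells at 24 h, and 2 and 5 in the mutants between the times. Without probe sets that may bind several transcripts, 1 was called in homozygous cells at 4 h and 3 in heterozygous cells between the times. Quantile normalization, equal medians and no trend each gave 3 in heterozygous cells between the times, and no trend gave 1 between the mutants. The Xist class as a covariate gave 2 in heterozygous cells at 4 h and 1 at 24 h. The cause of these shifts was not tested.

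The replicate number as a block within genotype gave 1 in wt and 2 in heterozygous cells at 4 h and 1 in heterozygous cells at 24 h, and 32 in homozygous against wt cells. The numbers were not taken as pairs: deviations of same-numbered arrays correlated at -0.49 and -0.66 between untreated and treated wt arrays, and at 0.38 to 0.61 within the mutants. A crossed pairing of the wt arrays, added after seeing the data, gave 6, 12 and 15 calls at 4 h, 9, 9 and 12 at 24 h, 21, 20 and 27 between the times, and 22 between the mutants. No share over all probe sets stands beside these counts.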

Other observations

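Lpl, on the further macrophage list, fell at 24 h by 1.82 on the log2 scale in wt, 2.02 in heterozygous and 1.76 in homozygous cells.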
